A study of Homo sapiens with 12 samples.

Results

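BJ-5ta is a line of human skin fibroblasts made immortal with telomerase. RNA was sequenced from a LEO1 knockout line of these cells (ΔLEO1), kept in medium with 10% serum or held for 10 days in 0.1% serum. The comparison took the 6 ΔLEO1 libraries of the 12 in the series, 3 from 10% serum (libraries 4, 5 and 6) and 3 from 0.1% serum (libraries 10, 11 and 12), and described 13236 of 60671 genes, those with over 1 CPM, a gene's read count scaled to a common library size, in 3 or more libraries. Wild-type BJ-5ta cells under the same conditions (libraries 1, 2 and 3 in 10% serum, 7, 8 and 9 in 0.1% serum) served for comparison. All ΔLEO1 libraries came from 1 clone, in which guides cut in exons 1 and 2 of LEO1, and variation from clone to clone is not part of their spread. The labels do not say whether the libraries of a group came from separate cultures, and the p-values then measure only the spread between these samples, which may be technical.

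Serum carries the growth factors and lipids that keep cultured fibroblasts dividing. When it is nearly withdrawn, fibroblasts leave the cell cycle, make less RNA and turn over their matrix and membrane proteins differently, while they keep the ability to divide again. LEO1 is a subunit of the PAF1 complex, which travels with RNA polymerase II during elongation. The comparison asks how RNA levels change on serum withdrawal in cells that lack it.

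Each library received the same dilution of the ERCC mix, a set of synthetic poly(A) transcripts. Values are given on 2 scales. On the ERCC scale, gene counts are scaled to the ERCC counts of their library, so that a change shared by all genes remains visible. On the other scale, CPM of the gene counts after TMM scaling, each gene is compared with the other genes of its library. Fewer cells, less RNA per cell and less RNA put into a library cannot be told apart on either scale. The RNA input of each library is not given. A gene was called where edgeR's likelihood ratio test gave a Benjamini-Hochberg adjusted p under 0.05. Values per library are listed in the order 4, 5 and 6 and then 10, 11 and 12, with 10% serum before 0.1% serum throughout. Errors of log2 fold changes are standard errors of the fit.

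The ΔLEO1 libraries held 32529465 to 45315560 gene counts. Library 6 stood apart from libraries 4 and 5, and library 12 from libraries 10 and 11. Libraries 4 and 5 differed more than 2-fold in 2 tested genes, but library 6 differed from them in 209 and 315. Libraries 10 and 11 differed in 18 genes, and library 12 from them in 430 and 453. Libraries 3 and 9, likewise the highest-numbered of their groups, enter the comparison with wild type. Counts without libraries 3, 6, 9 and 12 stand beside the gene groups or together ahead of the comparison with wild type. They are not given for metallothioneins and cell type markers. Marker levels are CPM before TMM scaling. All 12 fibroblast markers exceeded 1 CPM in every ΔLEO1 library. Of the other cell types, epithelial markers summed to 39.2 to 52.4 CPM (nearly all KRT10, a keratin), endothelial markers to 6.06 to 9.603 CPM and blood cell markers to 3.17 to 9.19 CPM. Muscle markers summed to 157 to 232 CPM in 10% serum and 134 to 179 CPM in 0.1% serum (mostly SMTN and CNN1), melanocyte and neural markers to 66.6 to 71.8 CPM and 22.96 to 41.1 CPM (nearly all MITF), and adipocyte markers to 11.4 to 12.3 CPM and 5.44 to 7.27 CPM (mostly FABP4).

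LEO1 itself (ENSG00000166477, minus strand, chr15:51938025-51971806 on GRCh38) stood at 1.396, 0.803 and 1.28 CPM in ΔLEO1 cells in 10% serum and at 0.675, 1.42 and 1.303 CPM in 0.1% serum. The wild-type libraries held 23.9, 24.5 and 24.1 CPM in 10% serum and 28.8, 29.3 and 19.9 CPM in 0.1% serum. All 6 ΔLEO1 libraries thus lay below all 6 wild-type libraries. The counts cover exons outside the cut as well, and the LEO1 locus overlaps MAPK6 and TMOD3 on the other strand. Serum did not change this residual level detectably (log2 fold change -0.03 ± 0.29, adjusted p = 0.961).

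Most RNAs were lower per ERCC count in 0.1% serum. ERCC transcripts took 0.625%, 0.838% and 0.932% of the counts of libraries 4, 5 and 6 and 1.88%, 3.24% and 1.09% of those of libraries 10, 11 and 12. The Wilson 95% intervals of these shares were no wider than 0.0120 percentage points and cover counting error only. The 2 groups did not overlap, although library 12 lay close to library 6. The mean share was 0.799% ± 0.157 in 10% serum and 2.07% ± 1.09 in 0.1% serum (SD, n = 3), and the exact two-sided permutation test gave p = 0.1, the smallest that 3 libraries against 3 allow. Seen the other way, 159, 118 and 106 gene counts per ERCC count in 10% serum compared with 52.2, 29.8 and 90.5 in 0.1% serum.

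On the ERCC scale 6253 genes fell (47.2% of those tested) and 129 rose (0.975%). The median log2 fold change was -1.05, with quartiles of -1.29 and -0.77, and 94.8% of the values were negative. All calls exceeded a 2-fold change. In 6743 genes all 3 libraries in 0.1% serum lay below all 3 in 10% serum, and in 112 above them. The extent of the fall depended on single libraries. From libraries 4 and 5 to libraries 10 and 11 the median log2 change was -1.71, whereas from library 6 to library 12 it was -0.06. Without library 12 the number of genes called lower was 11651, and without library 10 it was 641. Without libraries 4, 5 and 11 in turn it was 788, 2984 and 1093.

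Relative to the other genes, 1710 genes fell (12.9%) and 2190 rose (16.5%), with a median log2 fold change of 0.01. Of these, 423 fell and 742 rose by more than 2-fold, and 106 fell and 199 rose by more than 4-fold. The groups did not overlap in 1650 of the genes that fell and 2025 of those that rose. This scale depended less on single libraries, since leaving out 1 of the 6 gave 1148 to 2072 genes called lower and 1595 to 2438 called higher. Without libraries 3, 6, 9 and 12 there were 3670 and 3768, which included 1639 of the 1710 and 2081 of the 2190. The counts of gene groups below stand against the 12.9% lower and 16.5% higher of all genes. Group counts without libraries 3, 6, 9 and 12 stand against the larger 3670 and 3768 instead. On the ERCC scale they stand against 47.2% and 0.975%. No group was tested as a set.

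**Figure D1:**
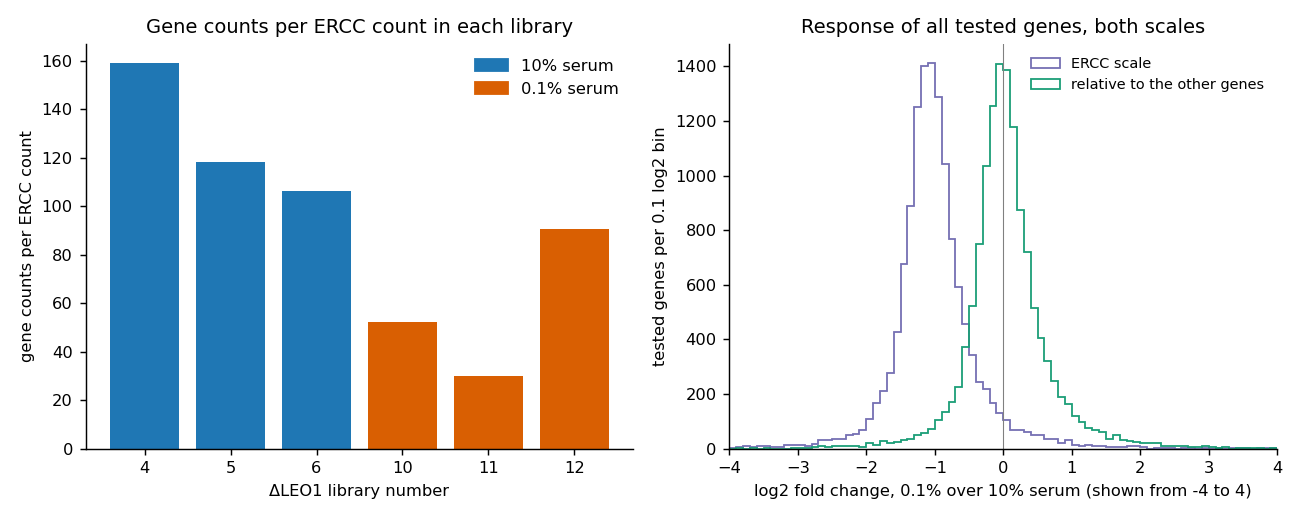
Left, gene counts per ERCC count in each ΔLEO1 library (bars, blue 10% serum, orange 0.1% serum); the 0.1% serum libraries lay at 29.8 to 90.5 and the 10% serum libraries at 106 to 159. Right, number of tested genes per 0.1 log2 bin of the fold change in 0.1% over 10% serum on both scales, with medians of -1.05 and 0.01; values beyond -4 and 4 are not shown.

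Genes named for their rise were called, averaged at least 10 CPM at a serum level and had no overlap between the groups. Among such genes, those with the largest rises included secreted and membrane proteins, a transcription factor, an intracellular protein and a long noncoding RNA. PMEPA1 (chr20:57648392-57711536), a membrane protein that restrains TGF-beta and androgen signalling, stood at 0.263, 0.134 and 0.443 CPM in 10% serum and 19.5, 28.2 and 7.58 CPM in 0.1% serum. Its log2 fold change was 6.02 ± 0.62 relative to the other genes (adjusted p = 1.05e-14) and 4.68 ± 0.53 on the ERCC scale. ANGPTL4 (chr19:8363289-8374373), a secreted inhibitor of lipoprotein lipase, went from 0.553, 0.402 and 0.0932 CPM to 20.5, 20.7 and 7.45 CPM, and its locus overlaps RAB11B-AS1 on the other strand. EGR2 (chr10:62811996-62919900), a zinc finger transcription factor of the early serum response, went from 13.8, 12.5 and 5.06 CPM to 284, 314 and 458 CPM (log2 fold change 5.07 ± 0.42, adjusted p = 2.01e-22). In these 3 genes every library in 0.1% serum exceeded every library in 10% serum on both scales, and lack of overlap was a condition of being named.

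COLEC12, a scavenger receptor with a collagen-like stalk, was at 1.896, 1.54 and 0.956 CPM in 10% serum and at 53.9, 58.9 and 36.5 CPM in 0.1% serum. SERPINF1, the secreted pigment epithelium-derived factor, was at 3.29, 3.12 and 2.12 against 76.01, 91.04 and 26.5 CPM. VCAN, the large proteoglycan versican, was at 10.7, 8.99 and 3.52 against 113, 118 and 141 CPM. In COLEC12 and SERPINF1 library 12 was the lowest of the 0.1% serum libraries, and in VCAN the highest. None reached the 10% serum range, as the choice of genes required. LRRC15, a leucine-rich membrane protein of activated fibroblasts, was at 0.948, 0.848 and 0.117 against 18.5, 16.6 and 11.1 CPM. SOD3, the extracellular superoxide dismutase, was at 8.67, 8.39 and 14.6 against 164, 168 and 43.7 CPM. APOD, a lipid-carrying apolipoprotein, was at 3.003, 3.33 and 1.89 against 32.5, 28.7 and 33.2 CPM.

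The size of some of these changes differed between libraries 4, 5, 10 and 11 and libraries 6 and 12. COMP, a cartilage matrix protein, stood at 5.16, 3.59 and 0.256 CPM in 10% serum and 23.9, 30.3 and 69.9 CPM in 0.1% serum, with a log2 change of 2.5 from libraries 4 and 5 to 10 and 11 and 6.54 from library 6 to 12. LRP4, a Wnt and agrin coreceptor, stood at 0.764, 0.469 and 1.17 against 15.5, 22.2 and 4.57 CPM and showed the reverse order, 4.12 and 1.61. DACT1, an intracellular modulator of Wnt signalling, was steadier at 1.76, 1.18 and 3.01 against 24.8, 28.3 and 24.5 CPM. MIAT, a long noncoding RNA named on the ERCC scale, was at 3.003, 2.901 and 1.49 against 16.8, 24.4 and 30.8 CPM.

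Of the genes named for their fall, 4 encode pregnancy-specific glycoproteins. These secreted immunoglobulin-like proteins are best known from the placenta, and their genes form a cluster of close copies on chromosome 19. PSG1 (chr19:42866464-42879822) was at 44.5, 50.9 and 42.5 CPM in 10% serum and 2.14, 1.18 and 1.17 CPM in 0.1% serum (log2 fold change -4.94 ± 0.37, adjusted p = 3.57e-29). PSG2 was at 13.6, 15.9 and 11.9 against 0.558, 0.514 and 0.798 CPM, PSG6 at 11.9, 11.9 and 12.2 against 0.616, 0.635 and 0.479 CPM and PSG9 at 21.1, 21.5 and 26.1 against 1.47, 1.18 and 1.596 CPM. Because 18.6%, 16.2%, 13.2% and 29.8% of the 58-base stretches of PSG1, PSG2, PSG6 and PSG9 occur in transcripts of other genes, the share of each single copy is uncertain. The 2 serum levels did not overlap for any of the 4, which was part of the choice.

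MYOCD (chr17:12665890-12768949), the smooth muscle coactivator myocardin, fell from 17.96, 19.4 and 75.6 CPM to 0.998, 1.97 and 2.101 CPM, with library 6 far above libraries 4 and 5. ACTC1, cardiac alpha-actin, showed the same order in 10% serum, with 24.8, 21.7 and 143 CPM against 6.897, 9.26 and 7.02 CPM in 0.1% serum, and its log2 fold change of -3.03 ± 0.63 was -1.59 without library 6. DIO2 (chr14:80197527-80387757), the deiodinase that activates thyroid hormone, fell from 205, 177 and 139 CPM to 8.42, 7.66 and 12.4 CPM (log2 fold change -4.19 ± 0.25, adjusted p = 2.54e-47). GJA5, a gap junction protein, fell from 23.05, 23.3 and 21.2 to 1.47, 1.33 and 1.65 CPM with little spread in either group.

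The remaining genes chosen for their fall were SERPINB7, an intracellular protease inhibitor (57.97, 56.2 and 72.9 against 3.73, 2.81 and 6.65 CPM), KCNN2, a calcium-activated potassium channel (27.4, 29.6 and 46.4 against 4.84, 3.81 and 4.02 CPM), and HMCN1, a very large matrix protein (46.2, 43.6 and 158 against 6.02, 5.33 and 13.2 CPM). LINC03069, a long noncoding RNA, was at 10.9, 10.4 and 11.9 against 0.293, 0.575 and 1.04 CPM. SCUBE3, a secreted EGF-repeat protein named on the ERCC scale, was at 52.7, 53.5 and 36.5 against 8.69, 9.803 and 3.56 CPM. In none of them did the groups overlap, which was part of the choice on the scale that named them. Their log2 fold changes ran from -4.102 ± 0.31 in LINC03069 to -2.69 ± 0.38 in SCUBE3.

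**Figure D2:**
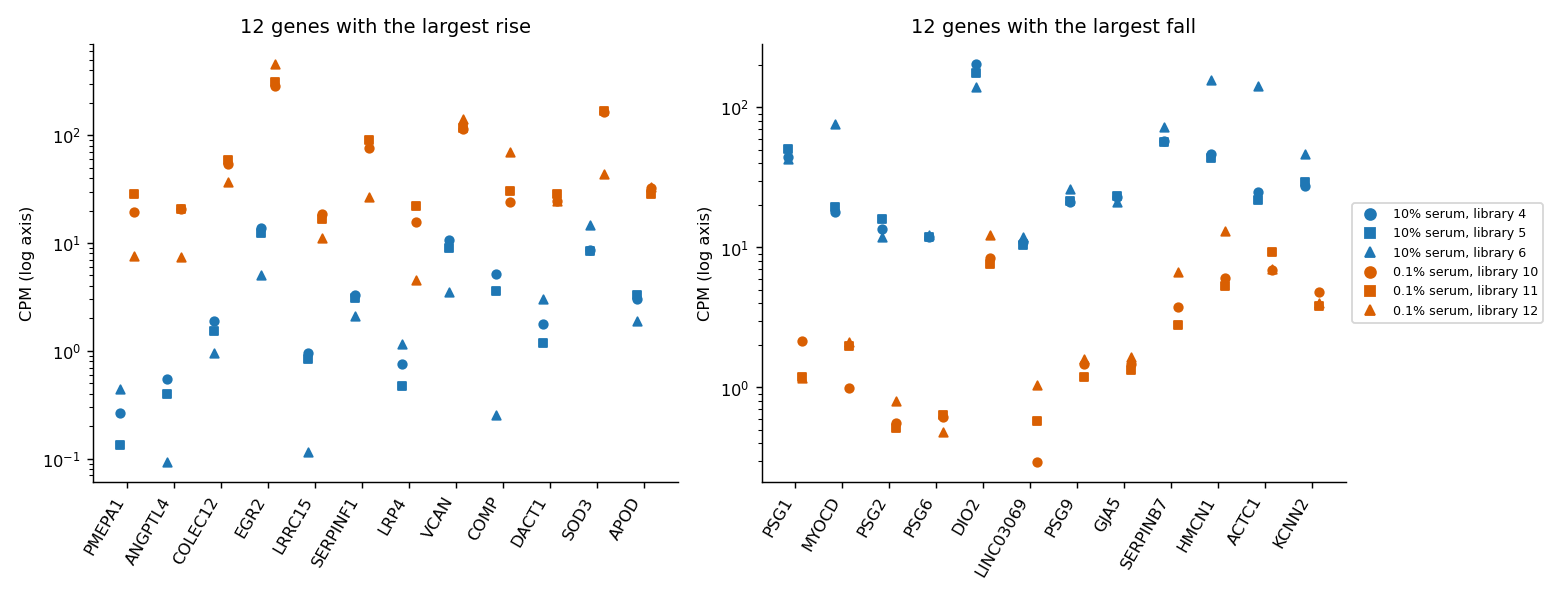
CPM (log axis) of the 12 genes with the largest called rise and the 12 with the largest called fall relative to the other genes in ΔLEO1 cells, with 1 point per library (blue 10% serum, orange 0.1% serum; triangles mark libraries 6 and 12). No gene shown has overlapping groups, since this was part of the choice; library 6 is far above libraries 4 and 5 in MYOCD, HMCN1 and ACTC1 and far below them in COMP and LRRC15.

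Genes of the cell cycle were lower per ERCC count, but relative to the other genes the picture differed between libraries. Of 38 genes of DNA replication initiation and the fork, 35 fell and none rose on the ERCC scale (median log2 fold change -1.46 against -1.05 for all genes), and 6 fell relative to the other genes (median -0.39). Of 35 mitotic spindle and kinetochore genes, all 35 fell on the ERCC scale (median -1.70) and 4 fell relative to the other genes (median -0.65). From libraries 4 and 5 to 10 and 11 the median changes were -0.64 and -0.95, and all 38 and all 35 members were lower. From library 6 to library 12 they were 0.19 and 0.14, and 10 of 38 and 9 of 35 members were lower. On a log2 scale around each gene's mean, the median level of replication genes was -0.25 in library 6, 0.37 in library 4 and -0.23, -0.23 and -0.084 in libraries 10, 11 and 12. That of mitotic genes was -0.23 in library 6, 0.53 in library 4 and -0.37, -0.49 and -0.096 in libraries 10, 11 and 12, so library 6 lay above libraries 10 and 11 there and below library 12. Without libraries 3, 6, 9 and 12, 35 of 38 and 35 of 35 members were called lower relative to the other genes.

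AURKA, a kinase of the spindle poles, was at 35.9, 38.5 and 20.98 CPM in 10% serum and 14.2, 13.3 and 15.7 CPM in 0.1% serum (log2 fold change -1.14 ± 0.39, adjusted p = 0.0157). CDC20, an activator of the anaphase-promoting complex, was at 63.4, 74.2 and 39.7 against 28.4, 23.5 and 30.3 CPM, PLK1, a mitotic kinase, at 60.2, 65.2 and 36.6 against 24.7, 20.4 and 32.3 CPM, and MAD2L1, a checkpoint protein, at 29.2, 36.1 and 16.1 against 13.1, 12.2 and 13.9 CPM. These were the 4 mitotic genes called, and library 6 was the lowest 10% serum library in each. GMNN, the licensing inhibitor geminin, was at 21.04, 20.9 and 12.5 against 8.16, 7.99 and 8.91 CPM, and MCM10, a helicase activator, at 18.02, 19.8 and 8.93 against 5.93, 7.11 and 9.36 CPM, where library 12 exceeded library 6. GINS1, a helicase subunit, was at 12.5, 15.9 and 8.27 against 5.84, 5.14 and 6.41 CPM and CDC6, a licensing factor, at 30.2, 36.2 and 20.4 against 14.4, 15.2 and 17.1 CPM. All calls of these genes other than that of GMNN were lost in at least 5 of 16 alternative settings.

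**Figure D3:**
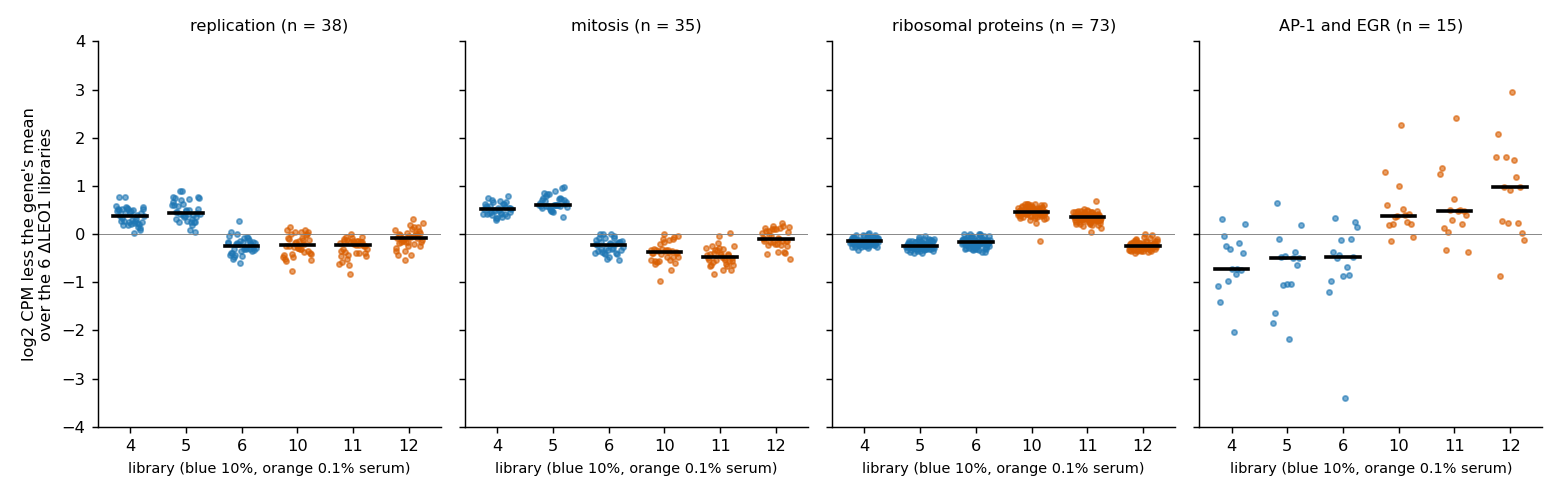
Log2 CPM of each member less its mean over the 6 ΔLEO1 libraries, for replication genes (38), mitotic genes (35), cytosolic ribosomal protein genes (73) and AP-1 and EGR genes (15), by library (blue 10% serum, orange 0.1% serum; black lines are medians). Replication and mitotic genes were high in libraries 4 and 5 only, ribosomal protein genes in libraries 10 and 11 only, and AP-1 and EGR genes in all 3 libraries in 0.1% serum.

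Many promoters of late cell cycle genes carry the cell cycle homology region (CHR), with the letters TTTGAA. It was found on either strand in 22 of 30 promoters of the mitotic list that RefSeq (GRCh38.p14) gave, and in 9.71% of the promoters of all 10210 tested genes with an entry, each taken from 250 bases before to 50 after the start. The CHR letters were found in 0 of 33 promoters of the replication list, although replication genes moved across libraries much as mitotic genes did. Whether the motif bears on these changes was not tested. The stretches below lie upstream of the start in the 4 mitotic genes with the largest relative fall among those with a match there. Capitals mark the CHR letters or, where they lie on the other strand, TTCAAA.
CDC20, plus strand, chr1:43358773-43358951: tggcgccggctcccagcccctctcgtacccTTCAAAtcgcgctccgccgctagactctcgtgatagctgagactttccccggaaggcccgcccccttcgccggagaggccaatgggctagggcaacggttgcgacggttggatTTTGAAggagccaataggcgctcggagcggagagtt
PLK1, plus strand, chr16:23678830-23678888: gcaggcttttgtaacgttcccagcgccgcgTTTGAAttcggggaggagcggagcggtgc
ANLN, plus strand, chr7:36389806-36389861: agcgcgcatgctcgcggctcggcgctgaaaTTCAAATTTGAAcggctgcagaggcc
DLGAP5, minus strand, chr14:55191659-55191753: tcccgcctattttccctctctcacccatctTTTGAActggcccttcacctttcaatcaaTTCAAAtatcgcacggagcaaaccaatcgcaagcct
The matches lie 178 and 65 bases before the start in CDC20, 29 in PLK1, 26 and 20 in ANLN and 138 and 109 in DLGAP5. ANLN, the cleavage furrow protein anillin, and DLGAP5, a spindle protein, were not called relative to the other genes (log2 fold changes -0.905 ± 0.40, adjusted p = 0.072, and -0.77 ± 0.46, adjusted p = 0.203).

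Cell cycle entry genes fell in part. Of 16 G1 cyclins, their kinases and E2F factors, 4 fell relative to the other genes and none rose (median -0.47), and 14 fell on the ERCC scale. CCND3, a D-type cyclin, went from 48.3, 48.5 and 72.6 to 27.2, 28.4 and 24.4 CPM and MYBL2, a transcription factor of late G1, from 60.9, 69.02 and 35.6 to 21.95, 21.7 and 26.3 CPM. CDK6 went from 114, 123 and 129 to 87.3, 70.9 and 91.3 CPM and CCNE2, an E-type cyclin, from 11.7, 13.8 and 8.6 to 5.25, 5.93 and 6.83 CPM. The brakes on entry moved both ways, with 2 of 10 lower and 3 higher. CDKN1A (p21) rose from 43.8, 46.5 and 34.5 to 80.03, 85.2 and 71.9 CPM (log2 fold change 0.93 ± 0.17, adjusted p = 2.1e-06) and CDKN2A from 15.01, 13.4 and 10.2 to 32.02, 33.7 and 17.8 CPM, a locus overlapped by CDKN2B-AS1 on the other strand. CDKN1B (p27) fell from 85, 82.2 and 90.96 to 39.3, 37 and 71.7 CPM, and CDKN2B, called higher, overlapped at 28.6, 26.5 and 42.7 against 57.6, 81.3 and 40.6 CPM. Of 10 genes of deoxynucleotide synthesis 1 fell, DCK (deoxycytidine kinase), from 18.8, 19.8 and 16.5 to 10.2, 11.5 and 14.4 CPM.

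The transcription factors of the immediate response to serum were higher in low serum. Of 15 AP-1 and EGR genes, 11 rose and 1 fell relative to the other genes, with a median log2 fold change of 1.27 against 0.01 for all genes, and the median was 1.06 from libraries 4 and 5 to 10 and 11 and 1.49 from library 6 to 12. FOSB went from 9.22, 7.83 and 12.6 CPM to 38.8, 66.9 and 109 CPM, FOS from 28.6, 16.6 and 25.9 CPM to 149, 144 and 185 CPM (log2 fold change 2.75 ± 0.31, adjusted p = 8.1e-15) and EGR3 from 3.11, 2.61 and 3.47 CPM to 8.69, 8.35 and 18.1 CPM. FOSB overlaps ERCC1 on the other strand, a human repair gene unrelated to the spike-in mix. Per ERCC count, 3 of the 15 rose and 3 fell. The member that fell relative to the other genes was MYC, which went from 53.9, 53.2 and 51.9 CPM to 44.8, 36.2 and 42.8 CPM.

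The ERK pathway induces several of these factors and also its own inhibitors. Of 15 such feedback genes, 6 rose and 3 fell relative to the other genes. DUSP4, a phosphatase of nuclear ERK, rose from 1.79, 1.495 and 0.629 to 16.8, 11.6 and 9.12 CPM (log2 fold change 3.26 ± 0.29, adjusted p = 1.68e-23), while DUSP5, a phosphatase of the same family, fell from 47.5, 48.6 and 54.96 to 21.3, 22.1 and 13.2 CPM. ETV1, an ETS factor, rose from 9.22, 8.95 and 5.57 to 28.2, 27.05 and 19.7 CPM, and IER3 from 47.5, 51.1 and 57.1 to 106, 111 and 157 CPM.

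Serum response factor binds CArG boxes in promoters of early response genes and of actin genes. A CArG box was found in 2 of 11 promoters of AP-1 and EGR genes, in 3 of 14 of SRF and YAP target genes, in 3 of 13 of contractile genes and in 1.03% of all 10210. The stretches of EGR1 and ACTC1 are shown because both carry the box upstream of the start and changed in opposite directions, with the boxes in capitals.
EGR1, plus strand, chr5:138465344-138465435: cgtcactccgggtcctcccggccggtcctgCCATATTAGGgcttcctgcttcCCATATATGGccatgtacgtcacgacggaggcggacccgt
ACTC1, minus strand, chr15:34795619-34795688: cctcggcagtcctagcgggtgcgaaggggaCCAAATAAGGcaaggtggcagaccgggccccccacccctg
The boxes lie 105 and 83 bases before the start of EGR1 and 109 before that of ACTC1. EGR1, chosen after its values were seen, went from 299.9, 241 and 271 CPM to 985, 826 and 930 CPM (log2 fold change 1.76 ± 0.20, adjusted p = 5.91e-16), whereas ACTC1 fell by 3.03 on the log2 scale (adjusted p = 0.000101), or by 1.59 without library 6.

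Contractile genes were lower in low serum. Of 15 genes of the myofibroblast contractile apparatus, 9 fell and 1 rose relative to the other genes (median -0.57), and 14 fell on the ERCC scale (median -1.64). ACTA2, smooth muscle alpha-actin, was at 1043, 913 and 2811 CPM in 10% serum and 554, 552 and 667 CPM in 0.1% serum, TPM1, a tropomyosin, at 849.7, 840.2 and 1338 against 371, 425 and 424 CPM, MYL9, a myosin light chain, at 934, 884 and 1638 against 539, 528 and 592 CPM, and CALD1, caldesmon, at 2963, 2829 and 5089 against 1665, 1708 and 2374 CPM. Library 6 had the highest level of all 4. Without it the call of ACTA2 was lost, and its locus overlaps ACTA2-AS1, FAS and STAMBPL1 on the other strand. Of 18 SRF and YAP targets, 8 fell and 2 rose, among them CCN2 (connective tissue growth factor), which went from 1101, 996 and 2142 to 3363, 3523 and 2387 CPM.

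Matrix genes moved in both directions. Of 21 collagen genes, 9 fell and 5 rose relative to the other genes. COL6A1 and COL6A2, chains of the beaded-filament collagen VI, rose from 656, 644 and 499.8 CPM to 4346, 4203 and 2974 CPM and from 781, 780.4 and 812 CPM to 5203, 5020.2 and 3531 CPM (log2 fold changes 2.68 ± 0.17 and 2.53 ± 0.15). COL11A1, a chain of a minor fibrillar collagen, fell from 837, 770.4 and 737 CPM to 135, 133 and 146 CPM (log2 fold change -2.498 ± 0.12, adjusted p = 1.91e-87). COL15A1, of the basement membrane zone, rose from 95.9, 91.97 and 35.8 to 269, 262 and 314 CPM. The VI chains rose on the ERCC scale as well, by 1.496 ± 0.44 and 1.38 ± 0.44 on the log2 scale (adjusted p = 0.00857 and 0.0139).

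Of 24 matrix glycoproteins and proteoglycans, 10 rose and 4 fell. DCN, the small proteoglycan decorin, went from 963, 901 and 543 to 3696, 3559.8 and 2647 CPM and MFAP4, a microfibril protein, from 147, 117 and 68.1 to 410.5, 445 and 515 CPM. POSTN, periostin, fell from 2597, 2607 and 1869 to 803, 711 and 816 CPM, but this call was lost in 11 of 16 alternative settings. OGN, the proteoglycan osteoglycin, had at most 2 counts in each 10% serum library and 7.54, 7.72 and 4.12 CPM in 0.1% serum, which is at least 89.8-fold higher when each 10% serum library is set to the floor of 3 counts. It was named after its values were seen. Of 23 proteases and inhibitors, 7 rose and 4 fell. MMP3, stromelysin, fell from 82.5, 119.8 and 61.8 to 13.8, 12.7 and 28.2 CPM and ADAMTS5, an aggrecanase, from 86.2, 77.6 and 158 to 13.6, 13.3 and 56.2 CPM. TIMP1, an inhibitor of such enzymes, rose from 458, 422 and 389 to 1562, 1399 and 1250 CPM and LOXL4, a lysyl oxidase, from 93.9, 97.9 and 25.2 to 241, 219.9 and 128 CPM.

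Adhesion and guidance genes changed as well. Of 27 integrin and focal adhesion genes, 9 fell and 3 rose. ITGA1, a collagen-binding integrin chain, fell from 276, 268 and 534 to 79.4, 91.9 and 147 CPM and ITGA3, a laminin-binding chain, from 316, 318 and 316 to 145, 149 and 105 CPM. ITGA4, the chain of VLA-4, rose from 64.5, 56.3 and 38.97 to 103, 95.8 and 244 CPM, with library 12 highest, and ITGA6, called lower, overlapped at 33.6, 35.9 and 14.5 against 16.1, 12.8 and 15.96 CPM. Of 31 axon guidance genes, 12 rose and 1 fell (median 0.32). ROBO2, a receptor for SLIT ligands, rose from 10.9, 11.1 and 9.16 to 61.6, 62.8 and 77.6 CPM (log2 fold change 2.69 ± 0.15, adjusted p = 2.57e-59), NTNG1, a membrane-bound netrin, from 7.74, 6.78 and 3.38 to 36.1, 33.4 and 16.6 CPM, EFNA5, an ephrin ligand, from 2.95, 3.86 and 2.797 to 13.8, 11.5 and 17.9 CPM, and EPHB4, an ephrin receptor, from 37.5, 34.8 and 32.6 to 103, 79.6 and 104 CPM.

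Receptors of growth factors were higher relative to the other genes, with 10 of 19 rising and 2 falling (median 0.47). Without libraries 3, 6, 9 and 12, 6 of 19 were called lower and 10 higher. Per ERCC count 4 fell and 1 rose (median -0.62). PDGFRA, a PDGF receptor, rose from 393, 360.3 and 283 to 1016, 848 and 676 CPM, TGFBR3, the TGF-beta coreceptor betaglycan, from 12.1, 12.99 and 9.91 to 48.6, 38.1 and 40.8 CPM, TGFBR2 from 81.1, 82.6 and 54.8 to 162, 151 and 139 CPM and S1PR3, a sphingosine phosphate receptor, from 92.1, 96.8 and 72.5 to 219, 209 and 211 CPM. None of PDGFRA, TGFBR3, TGFBR2 and S1PR3 was called on the ERCC scale. Of 29 TGF-beta and BMP pathway genes, 8 fell and 9 rose. The ligand TGFB2 fell from 71.5, 72.2 and 150.1 to 13.7, 12.8 and 27.7 CPM and ID3, a BMP target, from 138, 138 and 265 to 44.4, 47.1 and 72.6 CPM. LTBP4, which stores latent TGF-beta in the matrix, rose from 89.1, 86.7 and 72.7 to 457, 410.3 and 284 CPM and SKIL, a SMAD corepressor, from 61.8, 64.3 and 73.1 to 207, 212 and 247 CPM.

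Many Wnt pathway genes were higher relative to the other genes, with 14 of 27 rising and 3 falling. The median was 0.57, or 0.46 with members at the floor of 3 counts set to their bound. SFRP1, a secreted antagonist, went from 72.1, 85.3 and 25.3 to 416, 340.1 and 133 CPM, the ligand WNT9A from 5.58, 5.24 and 4.59 to 14.8, 17.9 and 26.4 CPM, APCDD1, an inhibitor at the membrane, from 36.3, 36.6 and 55.7 to 124, 112 and 135 CPM, and the receptor FZD1 from 16.6, 15.8 and 10.9 to 46.6, 44.2 and 33.7 CPM. Of 11 Notch pathway genes, 2 fell and 2 rose, against 12.9% lower and 16.5% higher of all genes tested. The receptor NOTCH3 fell from 69.6, 64.7 and 181 to 33.7, 32.3 and 30.4 CPM and the ligand JAG1, with overlapping groups, was at 52.3, 50.1 and 181 against 32.6, 38.4 and 58.9 CPM. Of 15 insulin-like growth factor genes, 3 fell and 5 rose. IGFBP3, the main circulating binding protein, fell from 5853, 5424 and 5417 to 1623, 1736 and 2033 CPM, while IGFBP4 rose from 488, 476 and 511 to 1217, 1037 and 946 CPM and IGFBP6 from 208, 191 and 195 to 376, 349 and 217 CPM.

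**Figure D4:**
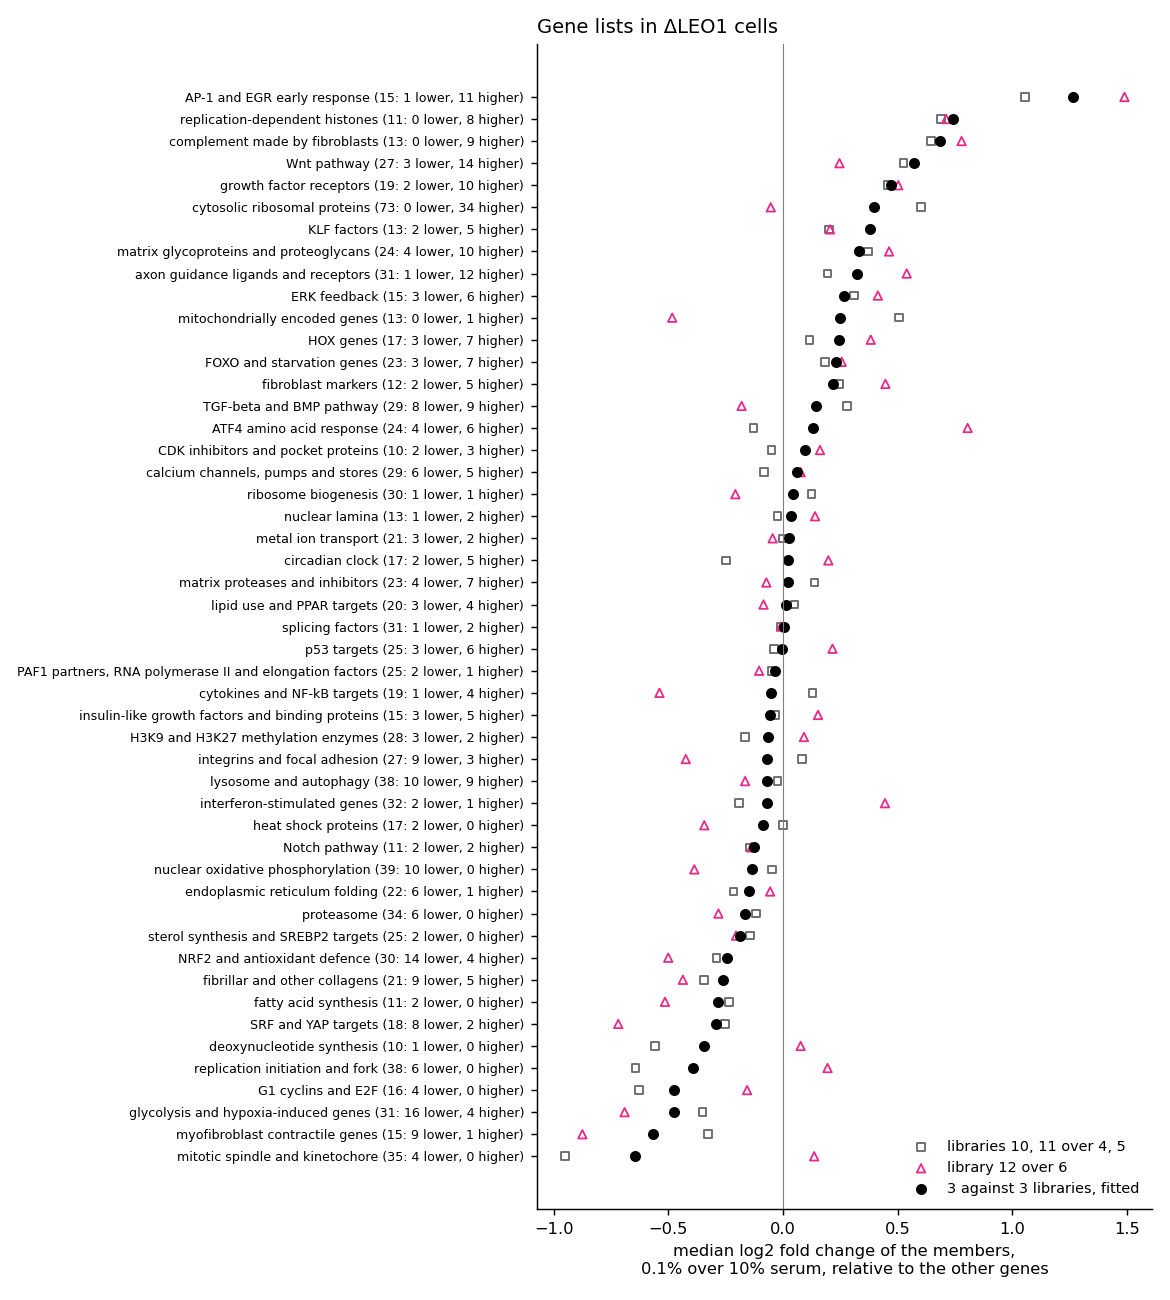
Median log2 fold change of the tested members of each gene list with at least 10 tested members, 0.1% over 10% serum in ΔLEO1 cells, relative to the other genes, from the fit of 3 against 3 libraries (black), from libraries 10 and 11 over 4 and 5 (grey squares) and from library 12 over 6 (pink triangles); members tested and called are given beside each name. AP-1 and EGR genes lie highest at 1.27 and mitotic genes lowest at -0.65. In many lists the 2 sets of libraries lie on opposite sides of 0, among them the mitotic, replication, ribosomal protein and mitochondrially encoded lists. Others are the deoxynucleotide (-0.56 and 0.08), TGF-beta and BMP (0.28 and -0.18), integrin (0.08 and -0.42), cytokine (0.13 and -0.54), clock (-0.25 and 0.20) and ATF4 lists (-0.13 and 0.81).

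Many genes of sugar use and the oxygen response were lower. Of 31, 16 fell and 4 rose relative to the other genes (median -0.48), and 24 fell on the ERCC scale. In wild-type cells 24 fell and 2 rose relative to the other genes (median -1.06). In 11 members the change was called different between the genotypes, always with a higher log2 value in ΔLEO1 cells, against 4.08% of all genes. HK2, hexokinase, went from 89.7, 93.8 and 76.02 to 38.4, 32.5 and 37.9 CPM and PGK1, phosphoglycerate kinase, from 481, 483 and 423 to 324, 283 and 221 CPM, both named after their values were seen. ANKRD37, a hypoxia target, fell from 7.09, 6.72 and 25.1 to 2.76, 3.51 and 4.02 CPM, with library 6 highest. The members that rose included NDRG1, a stress-induced gene, which went from 106, 91.3 and 104 to 512, 457 and 412 CPM (log2 fold change 2.195 ± 0.15, adjusted p = 5.77e-42), the angiogenic factor VEGFA, from 41.5, 41.7 and 31.6 to 102, 126 and 116 CPM, and PFKFB3, an activator of glycolysis, from 69.03, 68.5 and 57.6 to 161, 138 and 206 CPM.

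Of 25 genes of sterol synthesis 2 fell, HMGCS1 and FDFT1, by 0.53 and 0.33 on the log2 scale, and both calls were lost in at least 8 of 16 alternatives. Of 11 genes of fatty acid synthesis 2 fell, ME1 (malic enzyme), from 59.9, 61.1 and 76.2 to 28.9, 28.6 and 33.2 CPM, and FASN (fatty acid synthase), from 397, 394 and 459 to 273, 271 and 223 CPM. Without libraries 3, 6, 9 and 12, 10 of the sterol genes were called lower and 3 higher, and 7 of the fatty acid genes lower and 2 higher. Of all genes, 3670 were lower and 3768 higher in that setting. Of 20 genes of lipid use, 4 rose and 3 fell. Besides ANGPTL4, CPT1A, which admits fatty acids to mitochondria, rose from 35.6, 33.01 and 55.6 to 62.1, 75.6 and 71.3 CPM, while PPARA, a receptor that drives such genes, fell from 42.01, 39.3 and 48.3 to 25.9, 19.4 and 29.4 CPM and ACADM, an acyl-CoA dehydrogenase, from 41.4, 41.2 and 43 to 25.9, 27.7 and 35.3 CPM.

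Of 23 genes raised when insulin signalling is low, 7 rose and 3 fell. FOXO3, a transcription factor of starvation, rose from 41.2, 41.7 and 45.4 to 93.7, 97.2 and 75.1 CPM and PIK3IP1, an inhibitor of PI3 kinase, from 18.3, 16.6 and 12.5 to 45.3, 42.5 and 37.3 CPM. ARRDC4, an arrestin that restrains glucose uptake, fell from 294, 285 and 228 to 75.04, 78.8 and 53.3 CPM and CITED2, a cofactor of CBP and p300, from 1186, 1115 and 1389 to 619.6, 502 and 490.2 CPM.

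Many oxidant defence genes were lower, with 14 of 30 falling and 4 rising. NQO1, a quinone reductase, went from 321, 342 and 428 CPM to 70.8, 62.4 and 103 CPM (log2 fold change -2.21 ± 0.27, adjusted p = 2.95e-13) and TXNRD1, thioredoxin reductase, from 518, 518 and 783 CPM to 195, 166 and 206 CPM. SLC7A11, the cystine carrier, fell from 141, 166 and 121 to 24.7, 19.9 and 76.5 CPM, with library 12 far above 10 and 11, and SOD3 above was the member with the largest rise. Of 39 nuclear genes of oxidative phosphorylation 10 fell and none rose, by small amounts such as -0.47 ± 0.12 in NDUFS1 and -0.44 ± 0.12 in COX7A2. Of 13 mitochondrially encoded genes 1 rose, MT-CYB, from 1268, 1371 and 1473 to 2480.1, 2265 and 1251 CPM, with overlapping groups. Without libraries 3, 6, 9 and 12 all 13 were called higher, and from library 6 to 12 the median change was -0.48.

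Of 24 genes of the ATF4 amino acid response, 6 rose and 4 fell, against 16.5% higher and 12.9% lower of all genes tested. ATF4 itself rose from 156, 153 and 158 to 276, 296 and 335 CPM (log2 fold change 0.96 ± 0.14, adjusted p = 1.67e-10) and NUPR1, a stress-induced regulator, from 41.5, 35.4 and 27.2 to 55.2, 64.3 and 88.8 CPM, while DDIT3 (CHOP), with overlapping groups, was at 13.9, 16.8 and 8.02 against 5.72, 5.11 and 9.57 CPM. The median of the list was -0.13 from libraries 4 and 5 to 10 and 11 and 0.81 from library 6 to 12. Without libraries 3, 6, 9 and 12, 10 members were called lower and 7 higher, against 3670 and 3768 of all genes. Of 22 endoplasmic reticulum folding genes, 6 fell and 1 rose. HYOU1, a chaperone, fell from 145, 149 and 122 to 77.9, 65.2 and 98.9 CPM, SEC24D, a coat protein of export vesicles, from 241, 249 and 259 to 159, 159 and 188 CPM, and HSP90B1 from 1062, 1108 and 711 to 679, 672 and 662 CPM. ERN1, the sensor IRE1, was called higher at 12.1, 14.6 and 10.7 against 16.9, 17.9 and 19.3 CPM. Of 17 heat shock proteins 2 fell, among them DNAJB4, from 67.6, 77.6 and 56.9 to 39.9, 41.7 and 27.7 CPM.

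The protein synthesis genes split. Of 73 cytosolic ribosomal protein genes, 34 rose and none fell relative to the other genes (median 0.40), all 73 having a positive value. Of the same genes 4 fell and none rose on the ERCC scale. Their rise came from libraries 10 and 11, since the median change was 0.60 from libraries 4 and 5 but -0.05 from library 6 to 12, where 49 of 73 were lower. RPL22 stood at 74.3, 71.2 and 75.9 CPM and 145, 130 and 86.99 CPM and RPS4X at 579, 556 and 563 CPM and 1088, 972 and 638 CPM, with library 12 nearest to 10% serum in both. Without libraries 3, 6, 9 and 12, 72 of 73 were called higher. Of 30 ribosome biogenesis genes 1 rose, RRS1, from 18.8, 16.4 and 15.6 to 33.7, 36.7 and 18.4 CPM with overlapping groups, and 1 fell, MYC.

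Of 34 proteasome genes, 6 fell and none rose. PSMA5, a core subunit, went from 227, 212 and 220.1 to 136, 128 and 125 CPM and PSMD2, of the regulatory particle, from 299.6, 306 and 245 to 209, 193 and 213 CPM. Lysosome and autophagy genes moved both ways, with 10 of 38 falling and 9 rising. The cathepsins CTSK and CTSF rose from 96.9, 98.4 and 93.6 to 412, 389 and 271 CPM and from 53.3, 48.6 and 67.01 to 142, 130.3 and 100.4 CPM. The autophagosome proteins GABARAPL1 and MAP1LC3A fell from 179, 170.1 and 404 to 109, 109 and 124 CPM and from 11.4, 10.4 and 17.4 to 5.99, 6.899 and 5.64 CPM.

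Of 6 PAF1 complex genes, LEO1 included, 2 fell relative to the other genes, CTR9, from 94.8, 92.1 and 98.7 to 75.4, 73.1 and 75.5 CPM, and SKIC8 (WDR61), from 35.8, 34.1 and 36.3 to 28.6, 26.3 and 25.1 CPM, and none rose, against 12.9% lower and 16.5% higher of all genes tested. Of 25 genes of RNA polymerase II, elongation factors and other partners, 2 fell and 1 rose. ELL2, an elongation factor, went from 160.4, 170.3 and 163 to 109, 124 and 84.6 CPM, HEXIM1, an inhibitor of P-TEFb, from 58.1, 51.5 and 60.7 to 41.2, 40.9 and 41.6 CPM, and NELFA, a pausing factor, from 22.9, 21.5 and 23.1 to 29.5, 27.02 and 27.7 CPM. Of 31 splicing factor genes, 2 rose, DDX5 and SRSF5, and 1 fell, TRA2B, by 0.56 ± 0.17, 0.35 ± 0.13 and -0.28 ± 0.10 on the log2 scale.

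Of 28 genes for repressive methylation marks, 3 fell and 2 rose, against 12.9% lower and 16.5% higher of all genes tested. TET1 and TET2, which oxidise methylcytosine, fell from 10.5, 8.64 and 13.1 to 2.29, 2.51 and 5.56 CPM and from 27.9, 28.4 and 28.4 to 13.9, 18.5 and 24.4 CPM, and the demethylases KDM6B and KDM4C rose from 41.98, 42.6 and 51.4 to 64.8, 66.3 and 104 CPM and from 12.7, 12.5 and 14.6 to 16.2, 16.7 and 17.8 CPM. Of 13 nuclear lamina genes, 2 rose and 1 fell. LEMD3, an inner membrane protein that binds SMADs, rose from 23.3, 24.1 and 22.7 to 43.6, 43.3 and 34.7 CPM. Of 17 HOX genes, 7 rose and 3 fell. HOXA13 fell from 89.7, 84.2 and 94.2 to 30.2, 25.2 and 41.4 CPM and HOXA9 from 21.2, 20.3 and 20.5 to 8.51, 7.72 and 16.4 CPM, while HOXD11 rose from 3.16, 3.64 and 5.104 to 11.4, 12.9 and 6.81 CPM and HOXD8 from 5.43, 5.94 and 4.75 to 9.802, 12.4 and 12.5 CPM. HOXA13, HOXA9 and HOXD8 overlap HOTTIP, HOXA10-AS and HOXD-AS2 on the other strand.

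Histone genes were higher relative to the other genes in these poly(A) libraries. Most S-phase histone RNAs end in a stem-loop without a poly(A) tail in dividing cells, and such libraries capture the tailed fraction. Of 11 histone genes tested, 8 rose and none fell relative to the other genes (median 0.74, with 0.69 and 0.71 in the 2 sets of libraries). Per ERCC count none of the 11 rose and 1 fell, with a median of -0.42 against -1.05 for all genes. H2AC6 rose from 10.1, 11.8 and 7.57 CPM to 39.97, 39.6 and 41.8 CPM (log2 fold change 2.04 ± 0.20, adjusted p = 9.99e-22), H2BC12 from 7.61, 7.23 and 6.15 to 22.1, 19.7 and 14.8 CPM and H2BC21 from 5.95, 7.65 and 7.83 to 12.5, 13.5 and 12.8 CPM. The list also holds replacement histones made outside S phase, such as H1-10 and H3-3B, which rose. The motif TATAAA lay in 8 of the 10 histone promoters given and in 5.38% of all 10210. In H2AC6, shown for this group with the motif in capitals, it lies 31 bases before the start.
H2AC6, plus strand, chr6:26124111-26124171: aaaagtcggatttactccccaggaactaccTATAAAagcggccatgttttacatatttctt
It was also found in 12.5% of the promoters of genes more than 2-fold lower and in 7.22% of those of genes more than 2-fold higher relative to the other genes (297 and 526 promoters).

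Complement genes made by fibroblasts were higher, with 9 of 13 rising and none falling relative to the other genes (median 0.68). The proteases C1R and C1S rose from 183, 199 and 112 to 649, 680.2 and 312 CPM and from 113, 128 and 58.5 to 363, 396 and 199.6 CPM, and CLU, clusterin, from 168, 143 and 119.6 to 421, 385 and 265 CPM. C3, the central component, was called higher at 3.69, 10.9 and 2.66 against 78.8, 85.9 and 9.71 CPM, with library 12 below library 5. Of 19 cytokine and NF-kB target genes, 4 rose and 1 fell. CXCL12, a chemokine for stem cells and lymphocytes, rose from 24.6, 21.4 and 12.05 to 131, 113 and 70.2 CPM, TNFAIP6 from 7.43, 9.26 and 4.498 to 25.4, 28.05 and 10.9 CPM and the cytokine IL11 from 16.4, 17.9 and 28.2 to 43.1, 58.9 and 66.6 CPM. Of 32 interferon-stimulated genes, 2 fell and 1 rose, and the groups of all 3 overlapped. IFI27 was at 12.7, 19.6 and 2.17 against 2.32, 2.54 and 1.12 CPM, BST2 (tetherin) at 44.01, 59.3 and 13.4 against 13.9, 14.1 and 5.61 CPM and MX2 at 32.1, 51.7 and 18.97 against 77.7, 84.8 and 40.4 CPM. The median of that list was -0.19 from libraries 4 and 5 to 10 and 11 and 0.45 from library 6 to 12. Without libraries 3, 6, 9 and 12, 15 members were called lower and 3 higher, against 3670 and 3768 of all genes.

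Of 25 p53 targets, 6 rose and 3 fell, against 16.5% higher and 12.9% lower of all genes tested. Besides CDKN1A, the repair factor XPC rose from 74.3, 73.5 and 66.7 to 149.9, 138 and 191 CPM, PHLDA3 from 22.3, 18.99 and 22.1 to 48.9, 45.2 and 31.8 CPM and the kinase PLK3 from 17.3, 15.6 and 15.7 to 26.4, 32.1 and 33.4 CPM. Of 13 KLF factors, 5 rose and 2 fell, with KLF10 at 51.5, 56.7 and 55.98 against 110.1, 125 and 369 CPM, KLF11 at 6.95, 5.74 and 4.64 against 8.57, 8.77 and 21.3 CPM, KLF13 at 63.4, 56.1 and 81.6 against 121, 106 and 91.2 CPM and KLF2 at 26.9, 24.8 and 21.3 against 18.05, 14.8 and 15.98 CPM. KLF10 and KLF11 were highest in library 12, and without library 12 the call of KLF11 was lost. Of 17 clock genes, 5 rose and 2 fell. BHLHE40, a repressor of the clock, rose from 36.7, 35.3 and 23.1 to 108, 117 and 261 CPM, NPAS2 from 16.2, 18.2 and 9.602 to 65.4, 75.6 and 24.1 CPM and PER2 from 20.6, 21.3 and 16.5 to 43.6, 46.96 and 45.2 CPM (log2 fold change 1.22 ± 0.13, adjusted p = 1.52e-19), while DBP, an output factor, fell from 13.9, 11.9 and 13.5 to 4.55, 3.66 and 9.15 CPM.

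Over all genes tested, 12.9% fell and 16.5% rose relative to the other genes. Of 29 genes of calcium entry and storage, 6 fell and 5 rose. The channel TRPC4 fell from 33.7, 35.3 and 40.2 to 6.81, 7.29 and 13.3 CPM, SLC8A1, the sodium-calcium exchanger, from 33.9, 33.8 and 52.6 to 13.1, 14.1 and 21.99 CPM and ITPR2, a store receptor, from 34.4, 36.6 and 46.2 to 14.6, 15.6 and 29.6 CPM. Of 21 metal carriers and stores, 3 fell and 2 rose. FTL, ferritin light chain, fell from 3282, 3203 and 3275 to 2424, 2208 and 1635 CPM and SLC31A1, a copper carrier, from 116, 121 and 93.4 to 59.3, 51.2 and 66.2 CPM. No metallothionein of the 3 tested was called. MT2A was at 188, 194 and 12.1 CPM and 268, 230.3 and 129 CPM, with library 6 far below the rest. Among markers, 5 of 12 fibroblast genes rose and 2 fell. FAP, fibroblast activation protein, rose from 94.6, 89.6 and 73.5 to 179, 180.5 and 148 CPM and LUM, lumican, from 2178, 2220.4 and 1849 to 4678, 4279 and 3122 CPM, with DCN and PDGFRA above.

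PTPRC, of leukocytes, was at 6.08, 6.003 and 1.42 against 7.25, 6.81 and 5.29 CPM, CD14 at 1.32, 1.03 and 1.33 against 1.03, 1.301 and 0.479 CPM and EGFL7, of endothelium, at 6.08, 7.12 and 7.62 against 9.19, 8.32 and 5 CPM, and none of the 3 was called relative to the other genes. MITF, a melanocyte factor that fibroblasts also express, fell from 72.3, 66.3 and 73.2 to 23.4, 21.8 and 38.1 CPM and CNN1, calponin of smooth muscle, from 56.1, 50.4 and 98.5 to 32.1, 36.4 and 47.8 CPM, a call lost without library 6, 10 or 11. Of 4 adipocyte markers tested, FABP4, a fatty acid carrier, fell from 10.1, 9.57 and 10.02 to 4.78, 4.39 and 2.101 CPM, CEBPA, a transcription factor, rose from 0.105, 0.0893 and 0.0932 to 0.675, 0.514 and 0.558 CPM (log2 fold change 2.57 ± 0.52, adjusted p = 7.47e-07), and PPARG and LIPE were not called. Their part in the results was not tested.

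Single libraries set the size of some of these changes. Without library 6 the log2 fold change relative to the other genes was -0.60 for CALD1, -1.01 for ANKRD37, -0.62 for GABARAPL1, -1.07 for NOTCH3 and -0.24 for JAG1, against -0.92 ± 0.24, -1.92 ± 0.44, -1.14 ± 0.32, -1.71 ± 0.32 and -1.13 ± 0.43 with it, and the call of JAG1 was lost. Without library 12 that of KLF10 was 1.10, of ITGA4 0.90 and of ADAMTS5 -2.997, against 1.88 ± 0.45, 1.47 ± 0.35 and -1.96 ± 0.55 with it. Per ERCC count the log2 fold changes of COMP and MIAT were 1.40 and 1.36 without library 12, against 2.85 ± 0.48 and 2.27 ± 0.47 with it.

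Relative to the other genes, 3670 of all genes were called lower and 3768 higher without libraries 3, 6, 9 and 12, against 1710 and 2190 with them. The counts of gene groups in that setting stand against these 3670 and 3768, not against 12.9% and 16.5%, and were not tested against them. More members of most gene groups were likewise called in that setting, often in both directions. In the cell cycle, 10 of 16 G1 genes were then lower and 1 higher, all 10 deoxynucleotide genes were lower, and 5 of 10 inhibitors were lower and 5 higher. Of the matrix proteases, 7 were lower and 11 higher, of the axon guidance genes 9 and 16, and of the integrin and focal adhesion genes 10 and 9. Of the collagens 12 were lower and 8 higher, of the matrix glycoproteins 6 and 13 and of the contractile genes 12 and 2. Among genes of protein folding and turnover, 12 endoplasmic reticulum genes were lower and 2 higher, 6 heat shock proteins lower and 4 higher, and 12 proteasome genes lower and 2 higher. For ribosome biogenesis the counts were 5 and 11, for nuclear oxidative phosphorylation 14 and 2, for lipid use 6 and 6 of 19 and for genes raised at low insulin signalling 8 and 10 of 22. Of the 6 PAF1 complex genes 2 were lower and 0 higher. Of the p53 targets 10 were lower and 10 higher, of the cytokine genes 5 and 9, of the KLF factors 5 and 7, of the clock genes 8 and 6 and of the Notch genes 4 and 3. Of the calcium genes 9 of 28 were lower and 10 higher, and of the metal carriers 5 of 20 and 4. Of the genes for repressive marks 14 were lower and 7 higher, of the lamina genes 4 and 4, of the polymerase and elongation genes 5 and 4 and of the splicing factors 4 and 6. Of the AP-1 and EGR genes 3 were lower and 12 higher, of the ERK feedback genes 3 and 9. For SRF and YAP targets the counts were 8 and 4 of 17, and for sugar use and oxygen response genes 21 and 7. Lysosome and autophagy genes counted 13 and 15, oxidant defence genes 17 and 6 and insulin-like growth factor genes 5 and 4. TGF-beta and BMP genes counted 10 and 14 of 28, Wnt genes 3 and 17 of 26 and complement genes 0 and 10. Histone genes counted 1 and 8 of 10, HOX genes 5 and 7.

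The response was next set beside that of wild-type cells by the interaction of genotype and serum. A positive value means a higher signed log2 change in ΔLEO1 cells, which can be a larger rise or a smaller fall. On the ERCC scale 29 genes were called (0.219%), 18 positive and 11 negative, against 330 at an unadjusted p under 0.05. Relative to the other genes 540 were called (4.08%), 405 positive and 135 negative. Of the 540, 300 had a smaller change in ΔLEO1 than in wild-type cells in absolute size, and 49 were called in opposite directions in the 2 genotypes. Across all 13236 genes the changes of the 2 genotypes had a Pearson r of 0.74 and a Spearman rho of 0.71, as a description over genes, which are not independent. Of the 1710 genes that fell in ΔLEO1 cells 67.5% also fell in wild type, and of the 2197 that fell in wild type 52.5% also fell in ΔLEO1. For the genes that rose the shares were 56.4% of 2190 and 58.4% of 2117. The count of the interaction depended on the highest-numbered libraries and the test, with 3546 genes without libraries 3, 6, 9 and 12 and 265 by the quasi-likelihood test.

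COL14A1, a collagen that coats fibrils, had the most negative interaction. It stood at 55.9, 57.3 and 129.8 CPM in ΔLEO1 cells in 10% serum and 118, 103 and 75.6 CPM in 0.1% serum, with overlapping groups, and at 0.589, 0.787 and 0.317 CPM and 84.8, 60.6 and 54.03 CPM in wild type (interaction -6.59 ± 0.52 on the log2 scale, adjusted p = 4.35e-29). The ΔLEO1 libraries in 10% serum thus overlapped the wild-type libraries in 0.1% serum. CLDN11, a tight junction protein, showed the same order, with 15.1, 16.05 and 8.51 against 17.9, 13.5 and 29.02 CPM in ΔLEO1 and 1.85, 1.49 and 0.712 against 16.2, 15.4 and 23.3 CPM in wild type. CST1, a cystatin, was at 5.505, 5.16 and 2.45 against 11.9, 13.9 and 5.35 CPM in ΔLEO1 and 0.393, 0.367 and 0.449 against 10.03, 13.3 and 4.49 CPM in wild type, and 18.8% of its 58-base stretches are shared with other genes.

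TENM4, a teneurin of cell contacts, rose in both genotypes, from 0.158, 0.335 and 0.163 CPM to 2.49, 2.45 and 2.42 CPM in ΔLEO1 and from 0.0842, 0.0524 and 0 CPM to 16.2, 13.4 and 5.05 CPM in wild-type cells. The wild-type libraries in 10% serum were at or under 3 counts, so its fitted interaction is no bound. ENTPD1, an ectonucleotidase overlapped by ENTPD1-AS1, reached 0.587, 0.817 and 0.293 CPM against 15.2, 14.4 and 3.62 CPM, and SLC7A14, a relative of the cationic amino acid carriers, 0.205, 0.212 and 0.213 CPM against 12.4, 8.24 and 9.63 CPM. HPSE2, which inhibits heparanase, reached 11.2, 11.3 and 8.404 CPM from 2.24, 2.66 and 4.87 CPM in ΔLEO1 and 94.9, 97.1 and 101 CPM from 2.89, 4.41 and 4.49 CPM in wild type. SCUBE3 fell in ΔLEO1 relative to the other genes but was not called in wild type at 41.9, 48.6 and 59.1 against 52.6, 50.99 and 20.5 CPM (interaction -2.42 ± 0.54, adjusted p = 0.000812). The interaction of ENTPD1 lost its call in 5 of 14 alternatives relative to the other genes and in 8 of 13 on the ERCC scale.

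The genes with the most positive interactions started below wild type in ΔLEO1 cells in 10% serum, fell in wild type, or both. COLEC12 was at 99.2, 94.5 and 27.3 CPM in wild-type cells in 10% serum and 156, 156 and 188 CPM in 0.1% serum, above ΔLEO1 in both (interaction 3.91 ± 0.56, adjusted p = 1.09e-08). LRRC15 was at 24.9, 24.6 and 4.12 against 33.7, 35.4 and 26.6 CPM in wild type and SHISAL1, a membrane protein, at 9.09, 8.29 and 4.33 against 36.6, 33.4 and 17.9 CPM, with 0.158, 0.245 and 0.163 against 9.86, 12.8 and 5.03 CPM in ΔLEO1. A2M, the protease trap alpha-2-macroglobulin, fell in wild type from 489, 513 and 333 to 33.9, 32.1 and 19.5 CPM and was at 50.97, 52.1 and 80.6 against 38.5, 36.2 and 46.9 CPM in ΔLEO1. ASPN, asporin, which overlaps CENPP on the other strand, fell in wild type from 20.5, 20.7 and 7.81 to 3.43, 2.49 and 7.24 CPM and rose in ΔLEO1 from 2.34, 1.65 and 1.42 to 4.84, 5.204 and 11.6 CPM.

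FMO1, a flavin monooxygenase, fell in wild type from 6.595, 6.399 and 5.49 to 0.663, 1.28 and 0.0583 CPM and was at 6.45, 4.11 and 3.24 against 16.2, 13.7 and 3.803 CPM in ΔLEO1, where it was not called. FRAS1, a basement membrane protein, fell in wild type from 23.1, 24.2 and 13.8 to 2.51, 1.68 and 4.41 CPM and was at 3.45, 3.99 and 2.38 against 2.26, 2.57 and 8.48 CPM in ΔLEO1. CXCL8, interleukin 8, was called on the ERCC scale only, and this rested on library 3, since wild type was at 4.97, 5.09 and 244 CPM in 10% serum. Without the highest-numbered libraries its interaction on that scale was 0.47 and the call was lost.

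**Figure D5:**
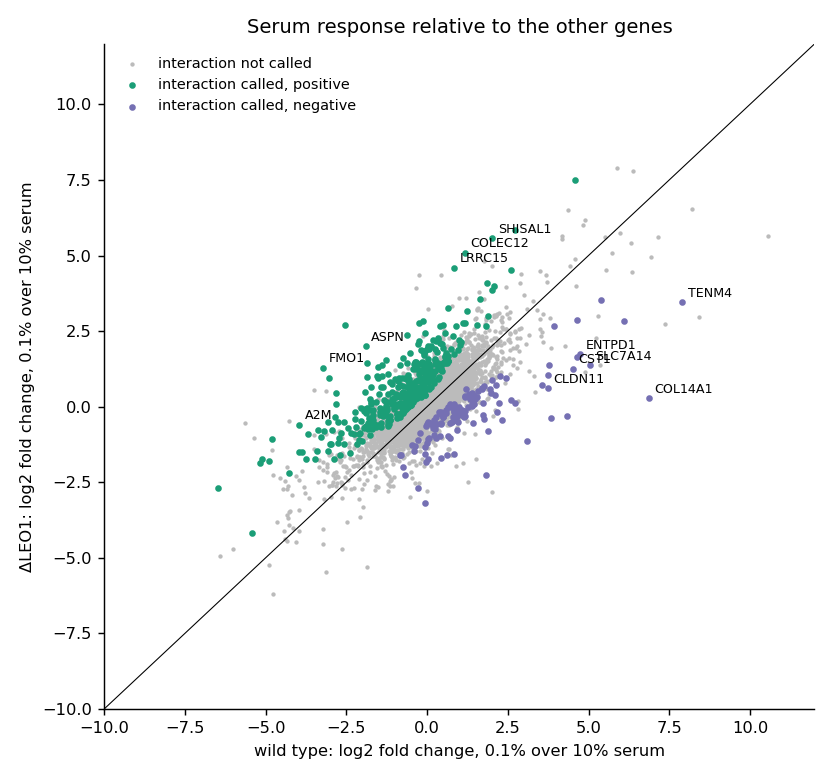
Log2 fold change in 0.1% over 10% serum of each tested gene in wild-type (horizontal) and ΔLEO1 cells (vertical), relative to the other genes, with the line of equal change; coloured points are the 405 positive (green) and 135 negative (purple) genes called for the interaction, and the named genes are the 6 at each end. COL14A1 lies at 6.87 in wild type and 0.29 in ΔLEO1, and A2M at -3.96 and -0.59.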

How the data were processed

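Poly(A) RNA of 12 BJ-5ta libraries was sequenced with ERCC spike-in transcripts added at the same dilution to every sample, and the RNA input of each library is not given in the sources used here. The deposited table holds raw read counts per gene, which the authors made by aligning reads to GRCh38 and counting them with featureCounts. The submitters' processing notes list bcl2fastq 2.20.0.422, STAR 2.7.10a and featureCounts 1.5.1. The annotation release and the strand setting are not given in the sources used here, so reads of a gene and of one overlapping it on the other strand cannot be told apart, which holds for 36 of the 216 named genes.

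Genes over 1 CPM in 3 libraries were kept. edgeR 4.0.16 (limma 3.58.1, R 4.3.3) fitted 1 negative binomial model with 4 groups, once with TMM factors of the ERCC counts and once with those of the genes, and likelihood ratio tests were adjusted by the Benjamini-Hochberg method. Standard errors came from the Fisher information of the fit. The script was tested on simulated data. Alternatives were the quasi-likelihood test, DESeq2 1.42.0, other filters, scalings and thresholds, a covariate and left-out libraries. Named genes were, on each scale, the 12 called with the largest rise and the 12 with the largest fall among genes that averaged 10 CPM or more at a serum level and whose libraries did not overlap, the 6 at either end of the interaction, and up to 4 called genes of each of 57 lists (where none was called, the 2 most abundant). The lists and the comparison were chosen with earlier results of these data known. Gene positions are those of GENCODE 29 on GRCh38.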

Additional observations from a re-analysis of the deposited data

Results flagged for a closer look

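The serum response differed between ΔLEO1 and wild-type cells, by a called interaction of genotype and serum, in the named genes that follow. All values are log2 differences of the change in ΔLEO1 less that in wild type. On both scales the interaction was called in 11 of them. Relative to the other genes the values were COLEC12 3.91, LRRC15 3.76, SCUBE3 -2.42, COL14A1 -6.59, TENM4 -4.45, CST1 -3.26, ENTPD1 -3.00, HPSE2 -2.98, ASPN 3.90, FMO1 4.50 and FRAS1 3.27. They were, on the ERCC scale, COLEC12 3.798, LRRC15 3.60, SCUBE3 -2.93, COL14A1 -6.65, TENM4 -4.61, CST1 -3.81, ENTPD1 -3.40, HPSE2 -3.13, ASPN 4.24, FMO1 3.92 and FRAS1 3.68. TENM4 had wild-type libraries at or under 3 counts in 10% serum, so its values are no bound.

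CXCL8 was called on the ERCC scale only, at 4.02, and not without the highest-numbered library of each group, where it was 0.47.

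Relative to the other genes only, positive values were called in DIO2 1.24, SOD3 1.92, SHISAL1 3.56, A2M 3.37, CDKN1A 1.15, FOS 1.59, DUSP4 2.62, COL6A1 0.86, NDRG1 1.22, PFKFB3 1.02, IGFBP4 1.05, FZD1 0.97, ROBO2 1.13, NTNG1 1.94 and ITGA4 1.83. The histone genes H2AC6 1.03, H2BC12 0.86 and H2BC21 0.79 were among those with a larger rise in ΔLEO1 cells. Negative values were called in APOD -1.86, SLC7A14 -3.67, CLDN11 -3.15, HOXA13 -1.08 and MITF -1.27. Relative to the other genes the calls of SLC7A14 without library 5, of LRRC15 by the quasi-likelihood test and of ENTPD1 without library 6, 10 or 12 were lost. On the ERCC scale those of LRRC15 and HPSE2 were lost without library 6, that of SCUBE3 without library 4 and with the highest-numbered library as a covariate, and that of FRAS1 without library 12, where its value was 1.89. DESeq2 did not call LRRC15, TENM4, ENTPD1, ASPN, FMO1 and FRAS1 on that scale, and ENTPD1 lost its call there in 8 of 13 alternatives. No cause of these differences was tested.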

How the results depend on the processing

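On the ERCC scale the count of genes called lower, 6253, was 12020 without the highest-numbered library of each group, 1651 with only the 6 ΔLEO1 libraries in the fit, 1272 at a threshold of 0.01 and 641 to 11651 when 1 library was left out. The 129 called higher were 58 with only the 6 ΔLEO1 libraries, 69 at 0.01 and 68 to 135 with 1 library left out, the lowest without library 10. The 29 interactions were 17 by DESeq2, 114 without the highest-numbered libraries, 19 at 0.01 and 15 to 88 with 1 library left out, with 15 without library 6, 69 without library 11 and 88 without library 12. Of the 6253 genes called lower, 558 (8.92%) were called in all 6 leave-outs, and of the 129 called higher 53 (41.1%).

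Relative to the other genes the 1710 called lower were 3670 without the highest-numbered libraries and 1075 at 0.01, and the 2190 called higher were 3768 without those libraries. The 540 interactions were 265 by the quasi-likelihood test, 3546 without the highest-numbered libraries, 845 with that library as a covariate and 313 at 0.01. In all 6 leave-outs 905 of the 1710 (52.9%) and 1272 of the 2190 (58.1%) were called.

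The change of LEO1, -0.03, ran from -0.23 to 0.24 with 1 library left out and was positive without library 4 (0.12), 6 (0.06) or 10 (0.24). That of EGFL7, 0.11, ran from -0.061 without library 10 to 0.33 without library 12. Neither was called. Of 201 named values relative to the other genes, 147 kept their call in every alternative and 47 lost it in some, among them GINS1, MCM10, CDC6, CDC20, PLK1, MAD2L1, MYBL2, IER3, POSTN, JAG1, ERN1 and MT-CYB. Without libraries 4, 5, 6, 10, 11 and 12 in turn, 35, 34, 16, 32, 35 and 16 named calls were lost. Of 25 named values on the ERCC scale 23 kept it, and COMP lost it by DESeq2. Of 24 interaction values 12 lost their call in some alternative. The cause was not tested. No paired analysis was possible because the groups compared share no library number. The covariate above marks libraries by their place in the numbering and pairs none by label.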

Other observations

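Of 887 long noncoding genes tested, 241 rose (27.2%) and 88 fell (9.92%) relative to the other genes, with a median log2 fold change of 0.31. Of 11882 protein-coding genes, 1880 rose (15.8%) and 1589 fell (13.4%), with a median of 0.00. The difference between the classes was not tested. Per ERCC count, 25.8% of the long noncoding and 49.5% of the protein-coding genes fell. With the protein-coding genes split into 4 classes by genomic span, 19.2% of the 2971 longest rose and 15.8% fell, against 14.9% and 11.4% of the shortest.

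WNT11, a Wnt ligand, and PDK4, a kinase that slows pyruvate oxidation, had at most 3 counts in each ΔLEO1 library in 10% serum and were at least 11.3-fold and at least 8.34-fold higher in 0.1% serum, against a floor of 3 counts per library. Both were chosen after their values were seen.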
